A study of Mus musculus with 2 samples.

Results

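Basal-like epidermal cells were examined in single-cell ATAC-seq (scATAC-seq) libraries of mouse back skin, in which the enzyme Tn5 cuts open chromatin and each cut is assigned to a cell by its barcode. The cells were selected on their own accessibility, as the epithelial cells of each library that lay highest in a ratio of basal to suprabasal genes. They numbered 1106 of 6889 barcodes in the series, made up of 392 of 2541 Control barcodes and 714 of 4348 MOF cKO barcodes. A cell entered with at least 5000 cuts in peaks, which left 6462 cells. A score was the share of a cell's cuts that fell in peaks on or within 2 kb of a gene set, divided by the mean share in its library. A cell was epithelial when its log2 score for Krt5, Krt14, Trp63, Epcam, Cdh1, Perp, Dsp, Sfn and Esrp1 exceeded by more than 1 that for Col1a1, Col1a2, Col3a1, Pdgfra, Twist2, Lum, Dpt and Prrx1, which held for 3316 cells. Within each library the epithelial cells were ranked by the score for Itga6, Itgb4, Col17a1 and Krt15 over that for Krt1, Krt10, Krtdap and Sbsn. The top 1 in 3 was taken and is referred to here as the basal-high cells, and the bottom 1 in 3, again 392 and 714 cells, as the basal-low cells.

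The tissue was E16.5 back skin, with 1 library per genotype. The Control library is labelled by that word alone and came from littermates, and the MOF cKO library came from MOFfl/fl/K14Cre embryos, in which Cre is driven by a Krt14 promoter and therefore acts in epithelial cells and not in the dermis. Both carried the K14-H2BGFP reporter by which the cells were sorted, and GFP-positive and GFP-negative cells were recombined before the assay, so the mixing bears on the epithelial share of each library. The labels give the ratio as 5:1, but the sources differ on it, and by the rule 1175 of 2182 Control and 2141 of 4280 MOF cKO cells with enough cuts were epithelial. The animals had a mixed C57Bl/6J and CD-1 background, and the sources used here give neither the sex nor the number of embryos pooled. With 1 library per genotype no difference between the genotypes has a replicate check, and genotype cannot be told apart from embryo, background or library. Intervals in brackets are 95% intervals that cover counting error only, and no p-value was computed.

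The basal layer is the inner layer of the epidermis, where keratinocytes divide while anchored to the basement membrane by hemidesmosomes. Hemidesmosomes contain the integrin pair encoded by Itga6 and Itgb4, collagen XVII encoded by Col17a1, and plectin, and they link the keratin 5 and keratin 14 filaments to laminin outside the cell. The transcription factor p63, encoded by Trp63, maintains the basal state, and cells that leave the layer replace keratins 5 and 14 with keratins 1 and 10. MOF, encoded by Kat8, is the acetyltransferase that deposits H4K16ac, and it works in the MSL and NSL complexes, of which the NSL complex binds promoters of widely expressed genes.

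The basal-high cells differed from the basal-low cells at the genes that chose them and little at most other promoters. The median ratio was 2.68 in the Control and 2.78 in the MOF cKO basal-high cells, against 0.557 and 0.540 in the basal-low cells. The lowest ratio taken was 1.53 in Control and 1.54 in MOF cKO, and 90 and 153 epithelial cells lay within 1.1-fold of these limits. The suprabasal set spanned only 16 peaks, and a Control basal-high cell had a median of 4 cuts in it against 13 in basal-low cells, with 2 against 11 in MOF cKO. For the basal set the corresponding medians were 25 against 19 and 23 against 18 cuts. The 2 groups were further apart in the suprabasal than in the basal set, and 84 Control cells (21.4%) and 202 MOF cKO cells (28.3%) were taken with no cut in the suprabasal set at all. Those cells were shallower, with medians of 17625 and 38494.5 cuts against 76336.5 and 91057 in the other basal-high cells.

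**Figure D1:**
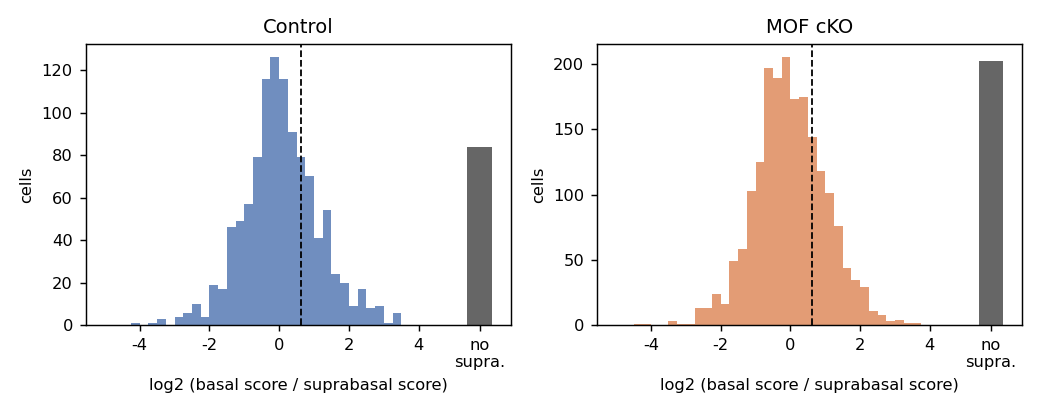
Distribution over cells of the log2 ratio of basal to suprabasal score, by library, for the epithelial cells, with a dashed line at the limit of the basal-high cells and a grey bar for cells without a cut in the suprabasal set. The ratio runs without a gap across the limits of 1.53 in Control and 1.54 in MOF cKO, so the basal-high cells are a range and not a separate cluster.

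Depth was similar in the libraries, with medians of 69598 cuts per Control basal-high cell (range 5101 to 257886) and 76743 per MOF cKO basal-high cell (range 6277 to 295541). Only 21 barcodes were shared by the libraries. The given markers were set beside the fibroblast-like cells, which were the cells whose mesenchymal score exceeded the epithelial score by the same margin. Accessibility is given as CPM, the cuts in a region scaled to a fixed total over the peak regions shared by the libraries. The summed promoter accessibility of Itga6, Itgb4, Col17a1, Krt15 and Krt14 was 150 CPM in Control and 162 CPM in MOF cKO basal-high cells, against 27.9 and 22 CPM in fibroblast-like cells. The 8 fibroblast markers summed to 64.1 and 56.0 CPM in basal-high cells, against 289 and 260 CPM in fibroblast-like cells. Both classes were selected on these basal and fibroblast genes, all of which are part of the rule, so the sums describe the selection and check nothing beyond it. No measured marker of hair follicle, Merkel, fibroblast, endothelial, immune, melanocyte or muscle cells was at 0 cuts in the basal-high cells of either library.

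A group of the basal-high cells had the accessibility of another cell type. The epithelial cells of each library were clustered without using the ratio of basal to suprabasal score. A MOF cKO cluster of 131 cells was past 2-fold over the other epithelial clusters at 8 of 8 immune markers. It was led by Slc15a3, Spi1, Fyb and Ccl3, and is called immune-like. Its epithelial score was 0.573 and its mesenchymal score 0.0644, both below the mean of the library. It held 74 basal-high cells, 10.4% (8.23 to 12.8) of the MOF cKO basal-high cells, and 69 of the 74 had no cut in the suprabasal set. A Control cluster of 46 cells with a high immune score, at only 2 immune markers and therefore left unnamed, held 17 basal-high cells, 4.34% (2.55 to 6.85). These 17 had a median doublet score of 0.48, against 0.42 in the other Control basal-high cells, and a median of 53443 cuts. All 46 cells of that cluster had a median doublet score of 0.80 and a median of 160877 cuts. Doublet scores over 0.5 were found in 94 Control (24.0%) and 128 MOF cKO (17.9%) basal-high cells. The 8 immune markers summed to 24.4 CPM in Control and 41.6 CPM in MOF cKO basal-high cells, and to 18.4 and 29.5 CPM after both clusters were left out. Counts are also given without them, over 375 Control and 640 MOF cKO cells. The motif shares and the values of single genes are over all basal-high cells unless stated.

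Sequences are shown first for the regions whose accessibility differed most between the genotypes in basal-high cells, with their values given later. Each is the central 200 bases of the region, 5′ to 3′ on the + strand of GRCm38 (mm10) as held by RefSeq. Capitals mark AP-1 matches (TGANTCA, read on both strands), and a sequence without capitals holds no match to AP-1, GRHL or the p53 family. The first 3 regions had fewer cuts in MOF cKO and the last 3 had more.
Lower in MOF cKO, near Gm14214, chr2:154731387-154731586 (+): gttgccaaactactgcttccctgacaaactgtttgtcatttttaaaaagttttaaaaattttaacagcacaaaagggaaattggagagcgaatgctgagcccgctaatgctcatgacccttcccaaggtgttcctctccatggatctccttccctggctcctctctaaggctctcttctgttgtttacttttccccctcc
Lower in MOF cKO, near Foxp1, chr6:98767950-98768149 (+): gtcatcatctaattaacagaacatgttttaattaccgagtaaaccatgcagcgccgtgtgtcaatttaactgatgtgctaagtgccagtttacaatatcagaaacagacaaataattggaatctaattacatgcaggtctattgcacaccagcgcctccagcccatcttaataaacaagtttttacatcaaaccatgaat
Lower in MOF cKO, intron of Efna5, chr17:62717465-62717664 (+): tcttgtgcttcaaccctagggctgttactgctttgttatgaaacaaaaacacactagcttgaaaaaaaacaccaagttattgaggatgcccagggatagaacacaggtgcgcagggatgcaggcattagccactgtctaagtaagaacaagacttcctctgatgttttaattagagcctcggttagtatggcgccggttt
Higher in MOF cKO, near Psat1, chr19:15355461-15355660 (+): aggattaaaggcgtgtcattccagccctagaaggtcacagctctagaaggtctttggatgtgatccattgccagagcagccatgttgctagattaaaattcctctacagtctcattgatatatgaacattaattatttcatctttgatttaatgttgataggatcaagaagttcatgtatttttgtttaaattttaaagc
Higher in MOF cKO, near Kif21a, chr15:90916876-90917075 (+): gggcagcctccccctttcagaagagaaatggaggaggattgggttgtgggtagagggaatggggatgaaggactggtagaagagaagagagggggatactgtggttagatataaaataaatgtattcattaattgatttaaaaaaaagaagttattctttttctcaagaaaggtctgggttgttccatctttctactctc
Higher in MOF cKO, near Slc25a26, chr6:94405526-94405725 (+): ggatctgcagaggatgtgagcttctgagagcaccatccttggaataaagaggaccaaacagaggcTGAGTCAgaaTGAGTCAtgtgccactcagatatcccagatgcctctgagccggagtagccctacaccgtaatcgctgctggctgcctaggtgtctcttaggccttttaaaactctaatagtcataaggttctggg

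Regions that differed between the basal-high and basal-low cells within the Control library are represented by one of each direction, since they lie outside the selecting genes. The first was less accessible and the other more accessible in the basal-high cells.
Lower in basal-high cells, near Aldh1a1, chr19:20653303-20653502 (+): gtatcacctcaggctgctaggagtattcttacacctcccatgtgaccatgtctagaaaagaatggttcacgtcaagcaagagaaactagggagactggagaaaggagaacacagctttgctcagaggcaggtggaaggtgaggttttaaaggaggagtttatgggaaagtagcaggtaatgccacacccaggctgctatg
Higher in basal-high cells, near Frem1, chr4:83145885-83146084 (+): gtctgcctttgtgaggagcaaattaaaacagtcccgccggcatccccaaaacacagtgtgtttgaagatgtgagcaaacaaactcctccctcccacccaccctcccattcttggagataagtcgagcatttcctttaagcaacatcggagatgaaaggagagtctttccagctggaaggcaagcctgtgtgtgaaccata

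The 250 bases upstream of the start of Krt14 and Krt5, the keratin pair of the basal layer, are shown because their promoters differed between the genotypes in opposite directions. Both lie on the - strand of GRCm38 in RefSeq, and the AP-1 match is in capitals. Of all 32851 RefSeq promoters 6.75% held an AP-1 match in the same window.
Krt14, chr11:100207549-100207798 (-): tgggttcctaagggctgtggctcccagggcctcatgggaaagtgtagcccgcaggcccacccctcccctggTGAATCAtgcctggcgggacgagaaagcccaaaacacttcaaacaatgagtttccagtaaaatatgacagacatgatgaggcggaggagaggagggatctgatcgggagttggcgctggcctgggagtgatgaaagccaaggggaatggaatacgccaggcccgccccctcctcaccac
Krt5, chr15:101712899-101713148 (-): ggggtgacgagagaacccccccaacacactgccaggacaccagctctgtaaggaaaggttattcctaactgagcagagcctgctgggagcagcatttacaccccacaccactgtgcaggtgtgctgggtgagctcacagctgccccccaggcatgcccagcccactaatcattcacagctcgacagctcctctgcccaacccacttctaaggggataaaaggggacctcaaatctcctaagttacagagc

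The first question was what distinguished basal-high from basal-low cells within each library. Promoter accessibility, the cuts within 500 bp of a gene's start, was nearly the same in both. Of 14768 Control promoters outside the selecting genes, 17 were past 2-fold lower (0.115%) and 11 past 2-fold higher (0.0745%) in basal-high cells. Of 15335 MOF cKO promoters, 22 were lower (0.143%) and 48 higher (0.313%). Without the clusters with high immune scores 21 were lower and 15 higher in Control, and 23 lower and 7 higher in MOF cKO. The median log2 ratio over these promoters was 0.01 in Control and 0.04 in MOF cKO. Across the 11941 promoters with enough cuts in both libraries, the ratios had a correlation of 0.168 between libraries as a description across genes, which are not independent. Their standard deviations were 0.134 and 0.121, and 88.0% and 89.9% of them lay within 0.2 of 0.

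The genes used in the selection are given as a description, since it fixed their direction. In Control the log2 ratio of basal-high over basal-low cells was 0.48 at Itga6, 0.34 at Itgb4, 0.59 at Col17a1 and 0.34 at Krt15, the last a keratin of basal and follicle cells. In MOF cKO it was 0.32, 0.23, 0.38 and 0.43 at the same genes. The suprabasal genes lay much further from 0, at -2.23 and -2.18 for Krt1, -1.51 and -1.94 for Krt10, -2.19 and -2.03 for Krtdap, and -2.69 and -1.80 for Sbsn. Krt14, used only to call cells epithelial, was at -0.09 (-0.27 to 0.09) in Control and 0.13 (0.04 to 0.23) in MOF cKO.

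Basal genes that the selection did not use differed little between the cells. The 17 genes of the hemidesmosome and basement membrane outside the selection had a median log2 ratio of 0.01 in Control and 0.08 in MOF cKO. Of the 17, 9 were higher in Control and 13 in MOF cKO, against 8101 of 14768 and 9554 of 15335 promoters outside the selection. Without the clusters with high immune scores their medians were 0.05 and 0.11, against 0.01 and 0.01 for those promoters. The 15 basal keratinocyte factors had medians of 0.01 and -0.03. Lamb3, a chain of laminin 332, was at 0.10 (-0.08 to 0.28) and -0.14 (-0.31 to 0.03), and the transcription factor gene Tfap2b at 0.17 (-0.13 to 0.47) and -0.14 (-0.46 to 0.19). All of these medians lie within 1.1-fold of 1. The cells are therefore called by the way they were selected, and no further claim on their layer is made from their promoters. The differentiation genes outside the selection lay slightly lower, with medians of -0.13 and -0.10, and 0 of 23 measured in Control and 2 of 24 in MOF cKO were past 2-fold lower, against 0.115% and 0.143% of all promoters outside the selection. Hair follicle markers, none of them selecting genes, had a median of 0.20 in Control. There 11 of 13 were higher in basal-high cells, and 10 of 13 without the clusters with high immune scores. In MOF cKO their median was -0.04, with 5 higher. The medians of all promoters outside the selection were 0.01 and 0.04, with 8101 of 14768 and 9554 of 15335 higher.

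Among all other promoters with at least 500 cuts, the 10 lowest in Control basal-high cells had log2 ratios from -0.97 to -0.58. Sdr16c5, a retinol dehydrogenase, had a log2 ratio of -0.97 (-1.33 to -0.62) in Control and -0.67 (-1.02 to -0.33) in MOF cKO. Dsg1a and Dsg1b, which encode desmoglein 1, a desmosomal cadherin of suprabasal cells, were at -0.83 and -0.69 in Control and at -0.61 and -0.51 in MOF cKO, and as near copies of each other they may share reads. The membrane protease gene Tmprss4 was at -0.67 (-1.04 to -0.31) and -0.71 (-0.95 to -0.48). Adgrf4 was at -0.91 in Control and -0.13 in MOF cKO, so it did not lie equally low in both libraries. Cma2 (-0.66 and -0.16) and the glutathione S-transferase gene Mgst2 (-0.63 and -0.12) also had lower ratios in Control than in MOF cKO. So did Aig1 (-0.59 and -0.25) and Ndufc2, a gene of complex I (-0.58 and -0.08). Gsta3, another glutathione S-transferase gene, was at -0.60 and -0.52. The promoters named here were picked on the Control ratio alone, a choice that by itself favours ratios nearer 0 in MOF cKO. The differences between the libraries were not tested. The highest in Control was Tnf, the inflammatory cytokine, at 0.72 (0.38 to 1.07) against 0.42 (0.22 to 0.61) in MOF cKO, followed by Klhl38 at 0.71 against 0.16 and Samd14 at 0.68 against 0.00. None of the promoters named here was past 2-fold in either library. The Control basal-high cells enter both this comparison and the one between genotypes below, so the values of a gene in them are not independent.

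**Figure D2:**
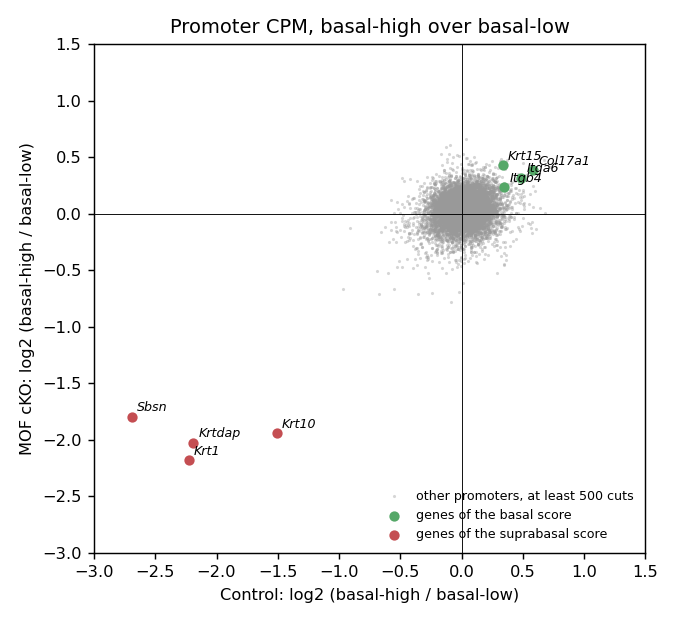
Log2 ratio of promoter accessibility in basal-high over basal-low cells, Control on the horizontal and MOF cKO on the vertical axis, one point per promoter, with the genes of the basal and suprabasal scores marked. Most points lie within 0.2 of 0 on both axes (88.0% in Control, 89.9% in MOF cKO), and the suprabasal genes of the selection, Krt1 at -2.23 and -2.18 among them, lie far below.

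Few of the regions over 2 kb from any gene start (distal regions) separated the cells either. Of 23151 Control distal regions with at least 300 cuts, 83 were past 2-fold lower (0.359%) and 48 higher (0.207%) in basal-high cells, and of 55586 in MOF cKO 145 were lower (0.261%) and 48 higher (0.0864%). Without the clusters with high immune scores the counts were 109 lower and 79 higher in Control and 141 lower and 44 higher in MOF cKO. The region near Aldh1a1, a retinaldehyde dehydrogenase gene, at chr19:20652945-20653861 and 51.4 kb downstream of its start, is the first of the pair of sequences given above. It had 2.64 CPM in Control basal-high cells against 8.61 CPM in basal-low cells, a log2 ratio of -1.71 (-2.26 to -1.14), and 3.80 against 8.97 CPM in MOF cKO, a ratio of -1.24 (-1.59 to -0.88). It thus lay lower in the basal-high cells of both libraries.

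Other regions at the extremes in Control were less alike in MOF cKO. All were picked on the Control ratio alone, which by itself favours ratios nearer 0 in MOF cKO, and the differences were not tested. A region in an intron of Fam129b at chr2:32898586-32899502 was at -1.62 and -0.52. Among the higher regions, the one 93.6 kb upstream of Frem1, an extracellular matrix gene of the basement membrane, at chr4:83145534-83146436 had 17.3 CPM in Control basal-high cells and 6.40 CPM in basal-low cells (1.43, interval 1.07 to 1.80). In MOF cKO the same region had 1.48 and 1.34 CPM (0.14, interval -0.54 to 0.87), so it was nearly closed in both. Regions in introns of Robo1 (chr16:72827829-72828954) and Fhit (chr14:9788298-9789234) were at 1.46 and 1.40 in Control and at 0.44 and -0.60 in MOF cKO.

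Over both libraries, 82 distal regions were past 1.5-fold lower in basal-high cells and 20 past 1.5-fold higher, of 21552 with enough cuts in each. AP-1 matches in the central 300 bases were held by 7.32% (2.73 to 15.2) of the lower and 15.0% (3.21 to 37.9, 3 of 20) of the higher regions, against 24.8% (24.2 to 25.4) of all those tested. RUNX matches (TGTGGT) were held by 31.7% (21.9 to 42.9) of the lower regions against 20.1% of all. In Control alone the same 1.5-fold limit gave 845 lower regions, of which 46.3% held an AP-1 match, so the share among lower regions depended on whether MOF cKO was also required.

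The second question was how the basal-high cells of the MOF cKO library differed from those of Control. Cuts were spread differently between promoters and distal regions. The share of cuts in promoter regions was 37.9% (37.91 to 37.96) in Control and 29.3% (29.28 to 29.31) in MOF cKO basal-high cells, a difference of -8.64 percentage points, and the share in distal regions was 48.1% and 56.8%. Without the clusters with high immune scores the promoter shares were 37.6% and 28.5%. The basal-low cells had 37.6% and 28.5%, and the fibroblast-like cells, which are not a target of K14Cre, had 42.2% and 41.6%.

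Cell by cell the promoter share ran from 25.8% through a median of 37.5% to 59.6% in Control, and from 14.6% through 28.1% to 64.5% in MOF cKO. The middle ranges did not overlap, with quartiles of 34.0% and 40.9% in Control and 25.7% and 32.2% in MOF cKO. Of the MOF cKO cells 131 (18.3%) lay at or above the lower Control quartile, and 69 of these were in the immune-like cluster, whose median was 47.0% against 27.8% in the other MOF cKO basal-high cells. After each cell was thinned to 5000 cuts the shares were 37.8% and 30.4%. Peaks were called in each library separately, and 3.53% of the cuts of Control and 13.1% of those of MOF cKO basal-high cells lay in peaks without a counterpart in the other library, whose part in the promoter share was not tested.

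**Figure D3:**
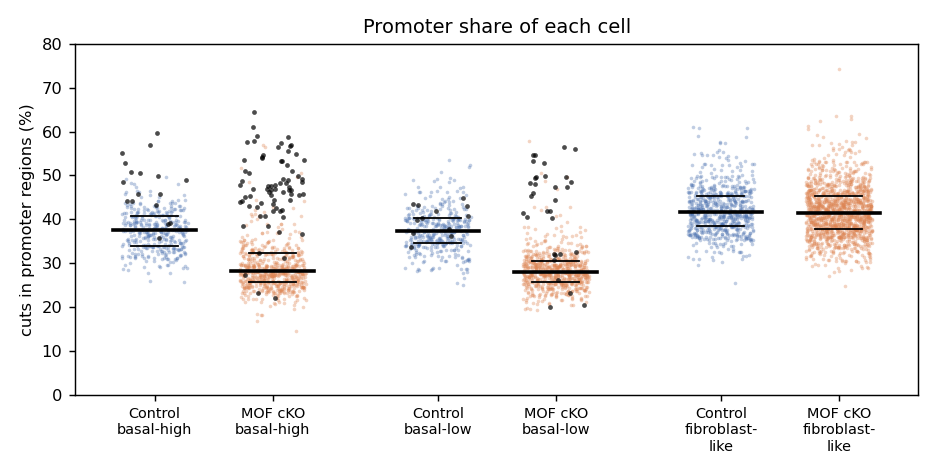
Share of each cell's cuts in promoter regions, in percent, by library and cell class, with lines at the median and quartiles and black points for cells of the clusters with high immune scores. The Control and MOF cKO basal-high cells have medians of 37.5% and 28.1%.

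At single promoters the change was the log2 ratio of MOF cKO over Control CPM in basal-high cells. Its median over 15820 promoters was -0.38 (quartiles -0.54 and -0.17), and 591 were past 2-fold lower (3.74%) and 470 past 2-fold higher (2.97%). Most promoters thus lay lower, and values below are to be read against -0.38. CPM and the promoter share have the same total of cuts, so this median and the share are not separate results. Scaled to all peaks of each library, 923 were lower and 382 higher with a median of -0.535, and with cuts per cell in place of CPM 493 were lower and 517 higher with a median of -0.320. With size factors from median ratios the median was -0.353. The split between lower and higher promoters thus depended on the scaling. Without the clusters with high immune scores the median was -0.42, with 666 lower and 482 higher. In basal-low cells the median was -0.41, with 421 lower and 461 higher of 15806. In fibroblast-like cells the median was -0.02, with 183 lower and 237 higher. Across 12171 promoters the change in basal-high cells had a correlation of 0.848 with that in basal-low cells and of 0.334 with that in fibroblast-like cells, given as a description across genes.

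Kat8, the gene deleted in MOF cKO, had 50.0 CPM (46.3 to 54.0) at its promoter in Control and 36.9 CPM (34.6 to 39.3) in MOF cKO basal-high cells, a change of -0.44. Cuts at a promoter do not check the deletion, since the promoter need not lie in the deleted part.

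Among the hemidesmosome and basement membrane genes, no member was past 2-fold either way at the settings used here, and the median change of the 20 measured was -0.35 against -0.38 for all promoters. Under alternatives 5 members passed 2-fold, with Lamb3 down to -1.40, Itgb1 to -1.11 and Lama5 to -1.04 and Col7a1 up to 1.15 after thinning each cell to 5000 cuts, and Itga6 at -1.03 when scaled to all peaks of each library. Itga6, the integrin alpha 6 chain at chr2:71786517-71787431, had 33.5 CPM (30.5 to 36.8) in Control and 18.3 CPM (16.6 to 19.99) in MOF cKO, a change of -0.88 (-1.07 to -0.69). Its partner Itgb4 at chr11:115974339-115975339 had 28.9 CPM (26.1 to 31.9) and 22.4 CPM (20.7 to 24.4), a change of -0.36 (-0.55 to -0.17), close to the median of all promoters. Col17a1 had 21.9 CPM (19.5 to 24.6) and 18.5 CPM (16.8 to 20.2), and Krt15 had 28.3 CPM (25.4 to 31.2) and 26.8 CPM (24.9 to 28.9), at -0.25 and -0.07. These 4 genes chose the cells within each library, so their levels between libraries are given as a description only. Over each gene body with 2 kb either side the changes were -0.26 for Itga6 (192 and 161 CPM), -0.47 for Itgb4, 0.22 for Col17a1 and -0.35 for Krt15.

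The laminin genes Lamb3 and Lama5 lay lower and collagen VII higher in MOF cKO. Lamb3 had 38.0 CPM (34.8 to 41.5) and 20.6 CPM (18.9 to 22.4), a change of -0.88 (-1.06 to -0.71), and Lama5, a laminin chain of the basement membrane, had 29.0 and 16.2 CPM, a change of -0.84 (-1.05 to -0.64). Bcam, a laminin receptor, and Frem1 were at -0.72 and -0.70. In the other direction, Col7a1, the anchoring fibril collagen, had 7.57 CPM (6.18 to 9.19) and 14.1 CPM (12.7 to 15.7), a change of 0.90 (0.58 to 1.23), which contrasts with -0.42 in fibroblast-like cells. Fermt1, the integrin activator kindlin-1, was at 0.36, and Cd151, a tetraspanin of the hemidesmosome, at 0.34. At the promoters, the intervals of Lamb3 and Lama5 lay wholly below the median of all promoters, and those of Col7a1, Fermt1 and Cd151 wholly above it. Over the gene bodies Lamb3 and Lama5 were at -0.45 and -0.44, Col7a1 at 0.88, Cd151 at 0.25 and Fermt1 at -0.04.

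The keratins of the basal layer went apart. Krt14 and Krt5 are part of the epithelial score that chose the cells, so their levels between libraries are a description only. Krt14 at chr11:100207161-100208048 had 37.3 CPM (34.1 to 40.7) in Control and 75.7 CPM (72.4 to 79.2) in MOF cKO, a change of 1.02 (0.88 to 1.17), while Krt5 at chr15:101712484-101713296 had 29.7 CPM (26.9 to 32.8) and 13.5 CPM (12.1 to 15.0), a change of -1.14 (-1.35 to -0.93). Under 5 alternatives the Krt14 change was short of 2-fold, down to 0.80 after thinning each cell to 5000 cuts. Over each gene body with 2 kb either side the changes were 0.24 for Krt14 (108 and 127 CPM) and -0.76 for Krt5. The Krt14 promoter was also higher in MOF cKO fibroblast-like cells, at 3.47 against 1.45 CPM. Both the K14-H2BGFP reporter and, in MOF cKO, the K14Cre transgene carry a Krt14 promoter, and whether reads from them add to the Krt14 region was not tested.

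**Figure D4:**
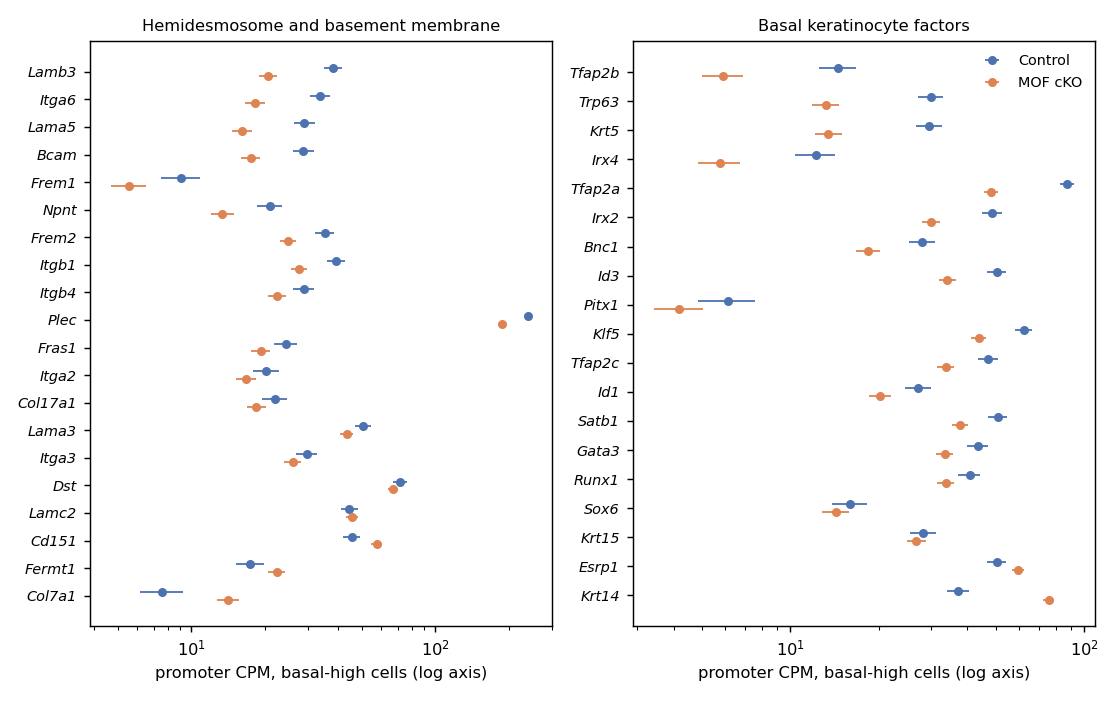
Promoter accessibility in CPM in the basal-high cells of each library for genes of the basal layer, on a log axis, with 95% counting intervals. Krt14 is higher in MOF cKO (37.3 and 75.7 CPM), and Krt5, Trp63 and Itga6 are lower, Krt5 with 29.7 and 13.5 CPM. All of these named genes took part in the selection, so their values are a description only.

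Of the 20 factors of basal keratinocytes, 4 promoters were past 2-fold lower, against 3.74% of all promoters, and 1 past 2-fold higher, with a median of -0.53. The selection of epithelial or basal-high cells used 5 of them, Krt5, Krt14, Krt15, Trp63 and Esrp1, and without these 2 of 15 were past 2-fold lower and 0 higher, with a median of -0.55. Trp63 had 30.1 CPM (27.2 to 33.1) in Control and 13.2 CPM (11.8 to 14.7) in MOF cKO at its promoters, a change of -1.19 (-1.40 to -0.98). Over its whole body the change was -0.23 (266 and 226 CPM), a smaller difference than at its starts. Tfap2b, a transcription factor of the AP-2 family, had 14.5 and 5.89 CPM (-1.30, interval -1.61 to -0.98), and its relative Tfap2a was at -0.86. Irx4, an Iroquois homeobox factor, had 12.2 and 5.73 CPM (-1.09, interval -1.42 to -0.76). The epithelial splicing factor gene Esrp1 was at 0.24, and the promoter past 2-fold higher was that of Krt14. After thinning each cell to 5000 cuts Trp63 was at -0.79 and Irx4 at -0.80, both short of 2-fold, while Pitx1 went from -0.55 to -1.42. Tfap2a was at -1.01 when scaled to all peaks of each library. In fibroblast-like cells the changes at Tfap2b and Irx4 were -0.67 and -0.19.

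Of the signalling genes, 3 of the 28 measured promoters were past 2-fold lower and 0 higher (3.74% and 2.97% of all promoters), with a median of -0.48 against -0.38 for all promoters. Sostdc1, an inhibitor of WNT and BMP signalling, had 15.3 and 7.10 CPM (-1.10, interval -1.40 to -0.81). Wnt6, a WNT ligand, had 15.9 and 7.49 CPM (-1.08, interval -1.37 to -0.80), and Tgfb2, a TGF-beta ligand, had 11.5 and 5.71 CPM (-1.01, interval -1.34 to -0.67). Thinning moved Wnt6 to -0.52 and Tgfb2 to -0.30, both short of 2-fold, and Sostdc1 was at -0.92 without cells of doublet score over 0.5. Jag1, a Notch ligand, was at 0.30, above the median of all promoters. The 13 measured hair follicle markers had a median of -0.54, and summed to 373 CPM in Control and 247 CPM in MOF cKO basal-high cells. In Control, the cluster with the highest hair follicle score (1.57) held 51 basal-high cells (13.0%). Another Control cluster, with Shh among its top genes, held 82 (20.9%). In MOF cKO, the cluster with the highest hair follicle score (1.36) held 10 basal-high cells (1.40%). The part of follicle-like cells in the signalling and follicle values was not tested.

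Differentiation genes showed values of both signs, with 5 of 30 measured past 2-fold lower and 2 higher (3.74% and 2.97% of all promoters) and a median of -0.29. Without the selecting genes 4 of 26 were lower and 1 higher. Abca12, the lipid transporter of lamellar granules, had 6.35 and 1.44 CPM (-2.14, interval -2.74 to -1.57). Krt10, a selecting gene, was at -1.18. Sbsn, also a selecting gene, had 2.41 and 7.92 CPM, a change of 1.71, and Ivl, which encodes involucrin of the cornified envelope, had 2.26 CPM (1.5 to 3.18) and 4.76 CPM (3.95 to 5.68), a change of 1.07 (0.51 to 1.72) that lay at 0.81 without the cells highest in the hair follicle score. Aloxe3, a lipoxygenase of the skin barrier, had 22.1 and 38.9 CPM (0.82, interval 0.63 to 1.01).

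Stress and wound-response genes were higher as a group. Like the other lists, this list was chosen with earlier results of these data known, so its values are a description only. Of the 26 measured, 9 were past 2-fold higher, against 2.97% of all promoters, and 0 lower, with a median of 0.59 against -0.38 for all promoters, and 23 lay above that median. Il1a, a cytokine released by keratinocytes, had 0.557 CPM (0.256 to 1.17) in Control and 7.66 CPM (6.61 to 8.79) in MOF cKO. Serpinb2, a serine protease inhibitor, had 0.780 CPM (0.356 to 1.37) and 10.6 CPM (9.39 to 11.9), and Sprr1b, a cornified-envelope precursor, 1.63 and 10.2 CPM. Their changes were 3.78, 3.77 and 2.64, from promoters that were almost closed in Control, and Il1a was at 1.93 after thinning. Over the gene bodies with 2 kb either side the differences were much smaller or of the other sign, with 52.9 and 45.9 CPM at Il1a (-0.20, interval -0.34 to -0.07) and 16.4 and 22.3 CPM at Serpinb2 (0.44, interval 0.22 to 0.68). The wound keratin genes Krt6a and Krt16 had 2.45 and 13.8 CPM in Control and 11.0 and 39.9 CPM in MOF cKO (2.17 and 1.53), and the interleukin genes Il1rn and Il24 were at 2.19 and 2.13, these 4 being named after their values were seen. Members at the other end were Tnfaip3 and Cxcl1, at -0.66 and -0.60, with Cxcl1 and Tnfaip3 at 1.03 and 0.46 in fibroblast-like cells. The median of the group in fibroblast-like cells was 0.36, and in basal-low cells 0.57. The immune markers also lay higher, with a median change of 0.72 over 8 genes and 2 past 2-fold higher, and so did the markers of endothelial cells (0.17), melanocytes (0.11) and muscle (0.19) against the -0.38 of all promoters. In basal-low and fibroblast-like cells the immune markers had medians of 1.12 and 1.14, with 6 and 5 past 2-fold higher. The part of immune, endothelial, melanocyte or muscle cells in the values of the stress genes was not tested. Without the clusters with high immune scores the changes at Il1a, Serpinb2 and Sprr1b were 3.83, 4.03 and 2.63.

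**Figure D5:**
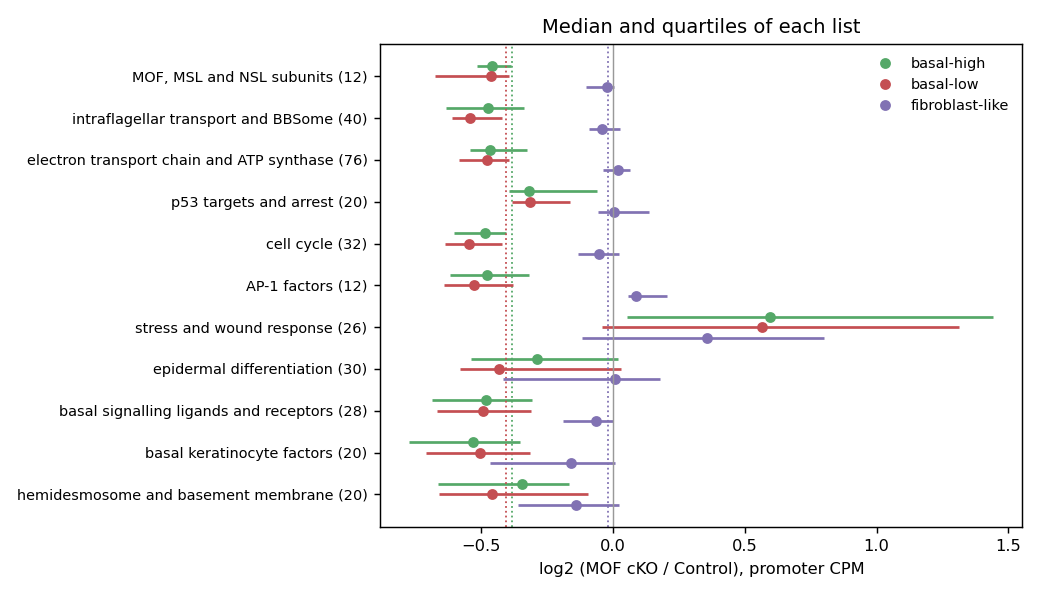
Log2 change of promoter accessibility, MOF cKO over Control in basal-high cells, by gene list, and the same for basal-low and fibroblast-like cells. Points are medians, lines quartiles, and dotted lines the medians of all promoters. The stress and wound-response genes have a median of 0.59, against -0.38 for all promoters. All lists were chosen with earlier results of these data known.

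The remaining groups had medians from 0.10 below to 0.07 above that of all promoters. The 76 genes of the electron transport chain and ATP synthase were all lower, as were 83.6% of all promoters, and 49 lay below and 27 above the median of all promoters. Their median was -0.47 with none past 2-fold, from -0.77 at Ndufa10 to -0.10 at Sdha (above 0 under 4 alternatives). It was -0.48 in basal-low cells and 0.02 in fibroblast-like cells. Of 40 intraflagellar transport and BBSome genes, 3 were past 2-fold lower (3.74% of all promoters), namely Dync2li1 at -1.05, Ift22 at -1.03 and Ttc26 at -1.01 (each short of 2-fold under some alternatives, Ift22 at -0.18 after thinning), with a median of -0.47. Of 12 genes of the MSL and NSL complexes and MOF itself, all were lower, 9 of them below and 3 above the median of all promoters, and none past 2-fold, with a median of -0.46, Msl1 at -0.71 and Msl3 at -0.09 (0.38 for the top 1 in 6 of the cells). The 32 cell cycle genes and 20 p53 targets had medians of -0.49 and -0.32 and none past 2-fold, with Ccnd2, a D-type cyclin gene, lowest of the former at 46.0 and 23.1 CPM. After thinning Ccnd2 was at -1.27, E2f2 at -1.28, Msl1 at -1.03 and the p53 target Gdf15 at 1.51, all past 2-fold.

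AP-1 factors, which pair as FOS and JUN proteins and bind TGANTCA, had 12 members measured, none past 2-fold, and a median of -0.48. Fos had 66.9 CPM (62.6 to 71.4) in Control and 38.3 CPM (35.9 to 40.7) in MOF cKO, a change of -0.81 (-0.94 to -0.67), against 0.17 in fibroblast-like cells. Jun had 105 and 68.6 CPM (-0.62, interval -0.72 to -0.52), and Fosl1 had 32.6 and 35.1 CPM (0.11, interval -0.06 to 0.27).

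The promoters furthest from 0 were chosen by their change alone, among those with at least 500 cuts, and are given as a description. The lowest was Minar2 with 16.2 CPM (14.1 to 18.5) in Control and 2.05 CPM (1.51 to 2.66) in MOF cKO, a change of -2.98. It was followed by Gstm2, a glutathione S-transferase gene, with 19.9 and 4.37 CPM (-2.18), then Igfals, Ccdc8 and Adcy6 at -2.14, -2.13 and -2.09. Padi4, which encodes a peptidylarginine deiminase, had 28.1 and 6.92 CPM (-2.02). Rab44, Nme5, Fam83c and Rbbp9 were at -1.85, -1.83, -1.78 and -1.73. The highest was Arl14, a small GTPase gene, with 0.483 CPM (0.163 to 0.970) and 9.52 CPM (8.36 to 10.8), a change of 4.30. Col6a4, a collagen VI chain gene, was at 4.11. Tnip3, an inhibitor of NF-kB signalling, had 1.11 and 18.6 CPM (4.07). Krtap2-4, Dnase1l3, Klra2, B3galt1, Tinag and Mpp4 were between 3.88 and 3.46. Thinning moved Tinag from 3.56 to 1.36, Adcy6 to -1.42 and Minar2 to -4.76, and Dnase1l3 was at 2.98 for the top 1 in 6 of the cells. The 10 highest rested on few cuts in Control, Arl14 on 13. Several of both groups also differed in fibroblast-like cells, with Padi4 at -2.47, Igfals at -1.85, Col6a4 at 2.85, Mpp4 at 2.01 (1.36 to 2.71), Tnip3 at 1.77 (0.76 to 2.90) and Klra2 at 1.22.

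Among distal regions, more were past 2-fold higher than lower. Of 41967 with at least 300 cuts over both libraries, 3293 were past 2-fold lower (7.85%) and 14964 past 2-fold higher (35.7%) in MOF cKO basal-high cells, with a median change of 0.33 (quartiles -0.39 and 1.60). The share of cuts in distal regions (48.1% and 56.8%) has the same total of cuts as CPM, so it is not a separate result. The minimum is summed over libraries of unequal size, and a region with few cuts in Control reaches it more readily than one with few cuts in MOF cKO. With the minimum set instead on the higher CPM of the libraries (11.1 CPM, the level of 300 Control cuts), 14814 regions were left, of which 1545 were past 2-fold lower (10.4%) and 5476 higher (37.0%), with a median of 0.38. Of the 13868 promoters with at least 300 cuts, 2.13% were past 2-fold lower and 1.77% higher. The median was 0.27 in basal-low cells, where 2468 were lower (5.71%) and 13655 higher (31.6%) of 43216. In fibroblast-like cells it was 0.03, and 2198 were lower and 4258 higher of 49200. Without the clusters with high immune scores 3268 were lower and 15217 higher.

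The regions with the lowest changes are the first 3 of the sequences given above. The region at chr2:154730549-154732424, 38.4 kb downstream of the start of Gm14214 and outside protein-coding genes, had 10.9 CPM in Control and 0.195 CPM in MOF cKO basal-high cells, a change of -5.81 (-7.45 to -4.55). The region at chr6:98767580-98768519, 260 kb downstream of the start of Foxp1, a forkhead factor gene, had 10.9 and 0.215 CPM (-5.67, interval -7.01 to -4.39). The region in an intron of Efna5, an ephrin ligand gene, at chr17:62717089-62718041 had 16.2 and 0.644 CPM (-4.66, interval -5.53 to -3.96). In fibroblast-like cells these changes were -0.31, -0.38 and -0.83, and in basal-low cells -3.99, -4.66 and -3.13. The regions near Gm14214 and Foxp1 lay under the minimum of 11.1 CPM on the higher CPM of the libraries, which the Efna5 region passed.

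At the regions with the highest changes the Control cells had almost no cuts. The region at chr19:15354833-15356289, 569 kb downstream of the start of Psat1, had 1 cut in Control and 808 cuts (15.8 CPM) in MOF cKO basal-high cells, with a lower bound of 5.84 on the log2 change. The region at chr15:90916153-90917798, 34.3 kb downstream of the start of Kif21a, had 0 cuts and 415 cuts (8.09 CPM). Against a floor of 3 cuts over the Control basal-high cells (0.111 CPM), a chosen value and not a bound, it was 72.7-fold higher. The counting interval of its log2 change reached lower, down to 4.88. The region near Kif21a overlaps an annotated exon that belongs to no protein-coding gene. The region at chr6:94405167-94406085, 94.7 kb upstream of Slc25a26, had 0 and 399 cuts (7.78 CPM). It was 69.9-fold higher against the same floor, with an interval down to 4.82 on the log2 scale, and carries the 2 AP-1 matches in capitals above. In fibroblast-like cells the changes of the 3 were -0.72, 0.33 and 2.29. The regions near Kif21a and Slc25a26 reached the minimum of 300 cuts through the MOF cKO library. Both lay under the minimum of 11.1 CPM on the higher CPM of the libraries, which the region near Psat1 passed.

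AP-1 matches separated the regions by direction. They were held by 64.8% (64.0 to 65.5) of the regions past 2-fold higher in MOF cKO, by 71.5% (70.4 to 72.5) of those past 4-fold higher, by 21.7% of those with a log2 change under 0.25 in size and by 4.98% (4.26 to 5.78) of those past 2-fold lower, against 36.3% of all tested. With the minimum on the higher CPM these shares were 70.5% of higher, 4.92% of lower and 43.6% of all regions. The match is letters in a window and does not show that a factor was bound. RUNX matches differed little, at 21.5% of higher, 18.9% of lower and 20.9% of all regions, and TEAD matches (GGAATG) were at 25.7%, 21.3% and 23.4%. The p53 family motif, which p63 shares, was at 1.05% of higher and 1.37% of lower regions, ETS (ACTTCCG) at 1.07% and 1.06%, and GRHL (AACCGGTT) at 0.147% and 0.759%. Median GC content was 46.3% in higher and 49.3% in lower regions, and its part in these shares was not tested.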

How the data were processed

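Per the file headers, the deposited matrices were made by the authors with cellranger-atac 2.0.0, and the labels name Cell Ranger ATAC, Cell Ranger ARC and mm10. The deposited values are raw counts of Tn5 cut sites per peak and barcode, made by the authors without normalization from peaks called in each library separately. The 2 libraries held 169641002 (Control) and 324310197 (MOF cKO) cuts, with medians of 62973 and 66239.5 per barcode. Since 88.8% and 91.6% of values were even, intervals were computed on fragments of 2 cuts (Poisson and binomial, exact, 95%).

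Peaks of the libraries that overlapped were merged into 214119 shared regions, of which 18975 lay within 500 bp of a start (15862 genes) and 165639 were over 2 kb from any. Cuts of a cell class were summed and scaled to CPM over the shared regions. A promoter was measured with at least 20 cuts (100 for basal-high over basal-low cells). "Past 2-fold" is a limit of size, not a test. Epithelial cells were clustered in each library with Leiden (leidenalg 0.10.2, python 3.11.15), and doublets were scored but not removed. The calculation of folds was tested on simulated data. The members and the 11 gene lists were chosen with earlier results of these data known. Genes were named by rule: Kat8, the selecting genes, basal and basement membrane genes with at least 200 cuts, the 3 lowest and highest of other lists, and the 10 lowest and highest promoters of each comparison. Up to 12 alternatives were run for the promoter results. The other 3 were chosen after seeing the data, namely leaving out the clusters with high immune scores, leaving out cells with doublet scores over 0.5, and a minimum on the higher CPM for distal regions. A few items that this rule names are not reported here.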

Additional observations from a re-analysis of the deposited data

Results flagged for a closer look

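Gstm2, a glutathione S-transferase gene, had a log2 change of -2.18 at its promoter in basal-high cells, MOF cKO over Control, and of 0.38 in fibroblast-like cells, opposite directions in the 2 cell classes. The difference between the classes was not tested, since each class had 1 library per genotype, and Gstm2 belongs to a family of near copies between which reads may be shared.

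In MOF cKO basal-high cells 13.1% of the cuts in the peaks of the library lay outside the regions shared with Control and therefore in none of the comparisons, against 3.53% in Control basal-high cells. The MOF cKO library had 340134 peaks and the Control library 249679.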

How the results depend on the processing

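The promoter share of basal-high cells was lower in MOF cKO under every alternative run. Its difference of -8.64 points was -8.76 with a minimum of 20000 cuts per cell, -8.52 with 0.1 added to each score, -7.19 for the top 1 in 6, -8.14 without the cells with most cuts, -7.35 with cells thinned to 5000 cuts, -8.39 with a promoter window of 100 bp, -9.15 without the clusters with high immune scores and -8.19 without cells of doublet score over 0.5. Scalings and minima per promoter do not enter this share and were not run for it. In the same order the median promoter change (-0.383) was -0.389, -0.376, -0.307, -0.361, -0.315, -0.388, -0.415 and -0.360. It was also -0.380 without the cells highest in the hair follicle score, -0.535 when scaled to all of a library's peaks, -0.353 with size factors from median ratios, -0.320 per cell and -0.385 with at least 100 cuts. Most of these shifts are small but exceed the counting interval.

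Promoters past 2-fold lower numbered 923 when scaled to all of a library's peaks. The higher share of those past 2-fold was 44.3% as reported, 33.9% with thinned cells, 29.3% with the scaling to all peaks, 48.5% for the top 1 in 6 and 51.2% with cuts per cell, the last with 493 lower and 517 higher. The correlation of the basal-high over basal-low ratios between libraries (0.168) was 0.262 with thinned cells and 0.105 without cells of high doublet score, and other minima per promoter were not run for it. Relative to all promoters, the median of the stress and wound-response genes ranged from 0.85 to 1.00, while that of the hemidesmosome genes ranged from -0.09 to 0.12, that of the AP-1 factors from -0.14 to 0.00 and that of the differentiation genes from -0.11 to 0.16, so the last 3 were not on the same side under all alternatives. Distal regions past 2-fold lower and higher numbered 1545 and 5476 with the minimum on the higher CPM, in place of 3293 and 14964, and of the other alternatives only that without the clusters with high immune scores was run for them. Of the single-gene values under alternatives, 1928 stayed within the counting interval and 142 moved, many of them after thinning, which leaves few cuts per gene.

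No paired analysis was possible because each genotype had 1 library, and leaving out a replicate was not possible for the same reason. Depth limits single promoters, since several with the highest changes had under 50 cuts in Control. Fewer cells of a type and less open chromatin per cell cannot be told apart in summed cuts.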
